A study of Homo sapiens with 8 samples.

Results

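Serine/threonine protein phosphatases and dual-specificity phosphatases remove phosphate groups that kinases add. A phosphoprotein phosphatase works as a small catalytic subunit joined to regulatory subunits, which choose the substrate and the place in the cell. PP1 pairs its catalytic subunit with many regulators, PP2A adds a scaffold and a B subunit, calcineurin depends on calcium and calmodulin, and PP4 and PP6 carry subunits of their own. The typical dual-specificity phosphatases are the MAP kinase phosphatases, which inactivate ERK, JNK and p38, and the atypical ones are smaller and more varied. QKI7 is an isoform of Quaking, an RNA-binding protein that controls splicing, stability and translation of mRNAs.

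The genes described were all those whose name in a list of QKI7 peaks began with PPP and a digit between 1 and 6, PPP1R15A left out, or with DUSP and a digit. They were 44 of the 6520 genes named in any of 4 lists, and they held 284 of 42083 peaks. All 44 names are current RefSeq symbols. In RefSeq, 101 protein-coding genes have such a name, so that 43.6% of them had a peak, beside 32.3% of all 20052 protein-coding genes. No peak of a phosphatase gene shared bases with a peak of another gene.

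The cells were HepG2, a human liver cancer line, carrying Cas9 and a 3 x Flag-tagged QKI7 brought in by lentivirus, with GFP-positive cells kept. They had received a guide against METTL1, the RNA 7-methylguanosine methyltransferase (sgMETTL1), or a control guide (sgNS), and the comparison asks whether METTL1 affects how QKI7 binds its transcripts. Cells were cross-linked by UV light, RNA was immunoprecipitated (IP) through the Flag tag, and each IP library had an input library. Both guides therefore shared the Cas9, the tag and the overexpressed QKI7, and the tagged protein was the one pulled down, so peaks describe that protein. The labels do not say whether the knockout was 1 clone or a pool, nor whether replicates were separate cultures, so that any p-value measures only the spread between these lists, which may be technical.

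The 8 samples gave 4 lists, 2 per guide, each made from an IP and its input. The lists held 10095 and 9388 peaks with sgMETTL1, against 11562 and 11038 with sgNS. Every peak has a fold, the authors' ratio of IP over input, and a p-value, both the authors' own, and no read counts are given beside them. The median -log10 p of a peak was 7.42 and 7.98 in the sgMETTL1 lists, against 10.8 and 10.8 in the sgNS lists. METTL1 was named in none of the 4 lists, so these data hold no check of the knockout. Of markers of hepatocytes 5 of 8 were named in a list, of fibroblasts 0 of 5 and of blood cells 2 of 4 (LYZ and HBB), which shows enrichment over input and not expression.

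Phosphatase genes with a peak numbered 38 and 31 in the sgMETTL1 lists, against 38 and 35 in the sgNS lists. They held 73 and 61 peaks with sgMETTL1, against 78 and 72 with sgNS. Of the 44 genes, 26 had a peak in all 4 lists (59.1%, against 63.7% of all 6520 genes), 7 in 3 lists, 6 in 2 and 5 in 1. A gene is in a list only if a peak passed the authors' threshold, so better support among the 26 follows in part from the split itself. The best -log10 p of the 26 had a median of 61.9. For the genes missing from at least 1 list the median was 4.14 and the highest value 14.2, held by PPP1R37 in replicate 2 of sgNS. Support was not strong for every gene of all 4 lists, since DUSP8 had a best -log10 p of 2.76 in replicate 1 of sgNS.

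**Figure D1:**
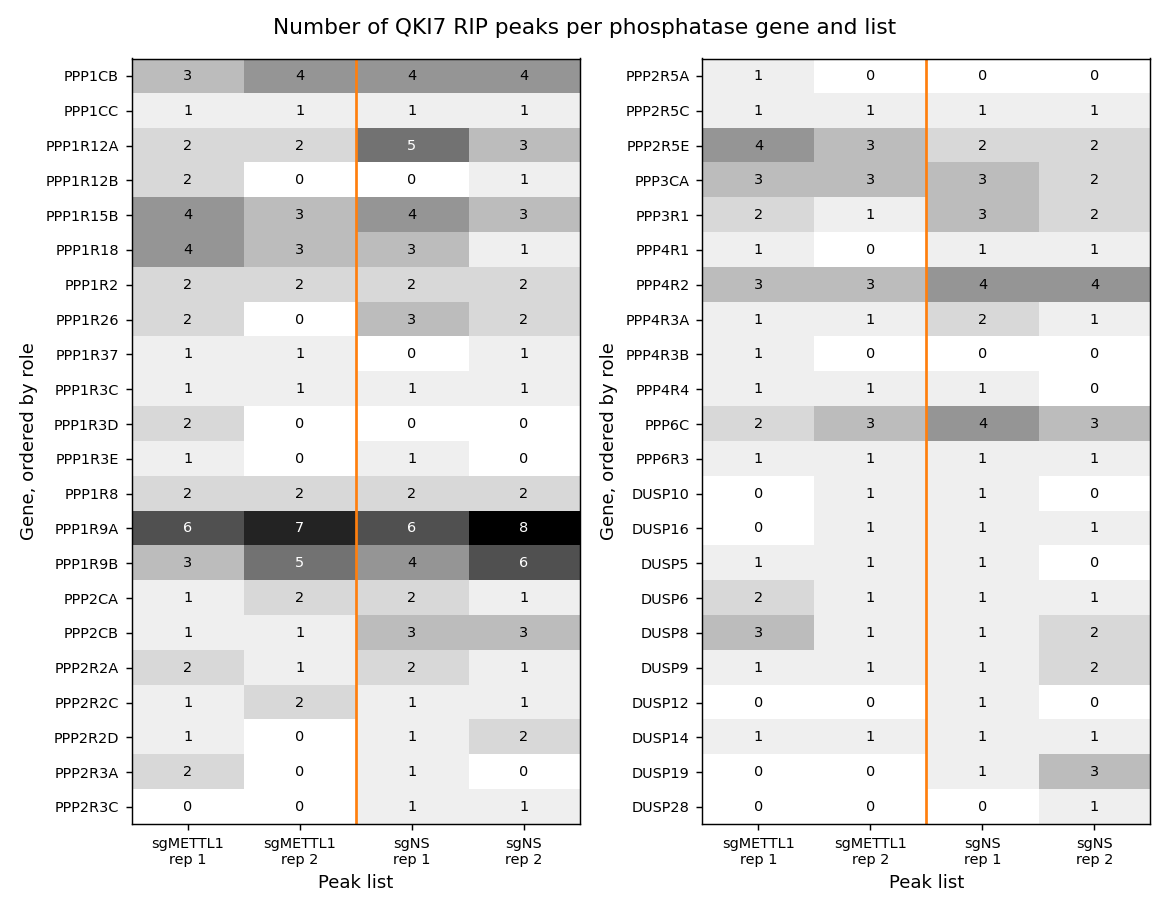
Number of QKI7 RIP peaks of each of the 44 phosphatase genes (rows, ordered by role) in each peak list (columns), with sgMETTL1 lists left of the line and sgNS lists right of it. PPP1R9A held the most peaks, between 6 and 8 in every list, and 26 genes had at least 1 peak in each of the 4 lists.

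Catalytic subunit genes were named either in every list or in none. Of 11 catalytic subunit genes, 6 had a peak, and these 6 were in all 4 lists: PPP1CB and PPP1CC of PP1, PPP2CA and PPP2CB of PP2A, PPP3CA of calcineurin, and PPP6C. No list named PPP1CA, PPP3CB, PPP3CC, PPP4C or PPP5C. A gene that no list named may still be bound or expressed below what the authors' threshold allowed.

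PPP1CB, the beta catalytic subunit of PP1, carried a strong peak of up to 1316 bases on the plus strand of chromosome 2 (GRCh38, 28799534 to 28800849), which ended 2091 bases before the gene's annotated 3′ end. Its fold was 12.0 and 13.4 with sgMETTL1, against 21.8 and 17.3 with sgNS. The guides did not overlap, as in the same direction at 38.7% of all sites in the 4 lists. The edges hardly moved, with 1316 and 1286 bases covered with sgMETTL1, against 1316 and 1316 with sgNS. Closer to the 3′ end, a smaller site (28802283 to 28802671) had folds of 2.17 and 3.10 with sgMETTL1, against 3.43 and 4.09 with sgNS. A stretch between them was listed at 4.82 and 5.68 with sgMETTL1, against 8.32 and 4.41 with sgNS, and there the lists overlapped.

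PPP1CC, the gamma catalytic subunit, had a peak that repeated exactly. A single peak of 508 bases in 3 exon blocks on the minus strand of chromosome 12 (110719808 to 110722184) had the same number of bases in all 4 lists. It was modest by fold, at 4.64 and 4.02 with sgMETTL1, against 5.61 and 4.83 with sgNS, and at the same time highly significant in the authors' lists, with -log10 p of 373 and 380 with sgMETTL1, against 820 and 700 with sgNS. The blocks of such a peak are pieces joined across gaps in the genome.

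PPP2CA, the alpha catalytic subunit of PP2A, had its main site on the minus strand of chromosome 5 (134196635 to 134197823), 2303 bases from the 3′ end. The fold there was 8.48 and 10.8 with sgMETTL1, against 12.1 and 10.1 with sgNS, which overlap. PPP2CB, the beta subunit, had the best mean rank of all phosphatase genes of the 4 lists (mean percentile 13.5, where 0 is the strongest gene of a list). Its fold was 25.3 and 19.2 with sgMETTL1, against 35.2 and 30.1 with sgNS. Its site joined 2 exon blocks in all 4 lists and reached the annotated 3′ end. Both sgNS lists also had peaks far upstream in PPP2CB where neither sgMETTL1 list had one, at folds of 5.57 and 2.49 at one site and 1.49 and 1.85 at the next. Their -log10 p was 14.9 and 6.63 at the first of these sites and 6.89 and 14.0 at the next, on both sides of the lists' median of 10.8.

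PPP3CA, the calcineurin A alpha subunit, had 2 sites near its 3′ end on chromosome 4. The larger (101024299 to 101025797) was at 9.80 and 4.59 with sgMETTL1, against 6.22 and 4.71 with sgNS. The smaller, 162 bases from the 3′ end, was at 2.18 and 5.47 with sgMETTL1, against 2.23 and 2.90 with sgNS. The sgMETTL1 replicates stood in opposite order at the 2 sites, and at both sites the sgNS values lay within their range.

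PPP6C, the catalytic subunit of PP6, showed how far 1 list can set a gene's strongest fold. Its best-supported site on chromosome 9 (minus strand, 125147563 to 125148373) had folds of 6.83 and 9.14 with sgMETTL1, against 10.0 and 10.6 with sgNS. The neighbouring site (125148463 to 125148942) was listed at 27.4 in replicate 1 of sgMETTL1 and at 4.01 in replicate 2, against 2.94 and 4.83 with sgNS. The 27.4-fold peak had a -log10 p of only 6.39, while the peak beside it in the same list had 21.4.

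**Figure D2:**
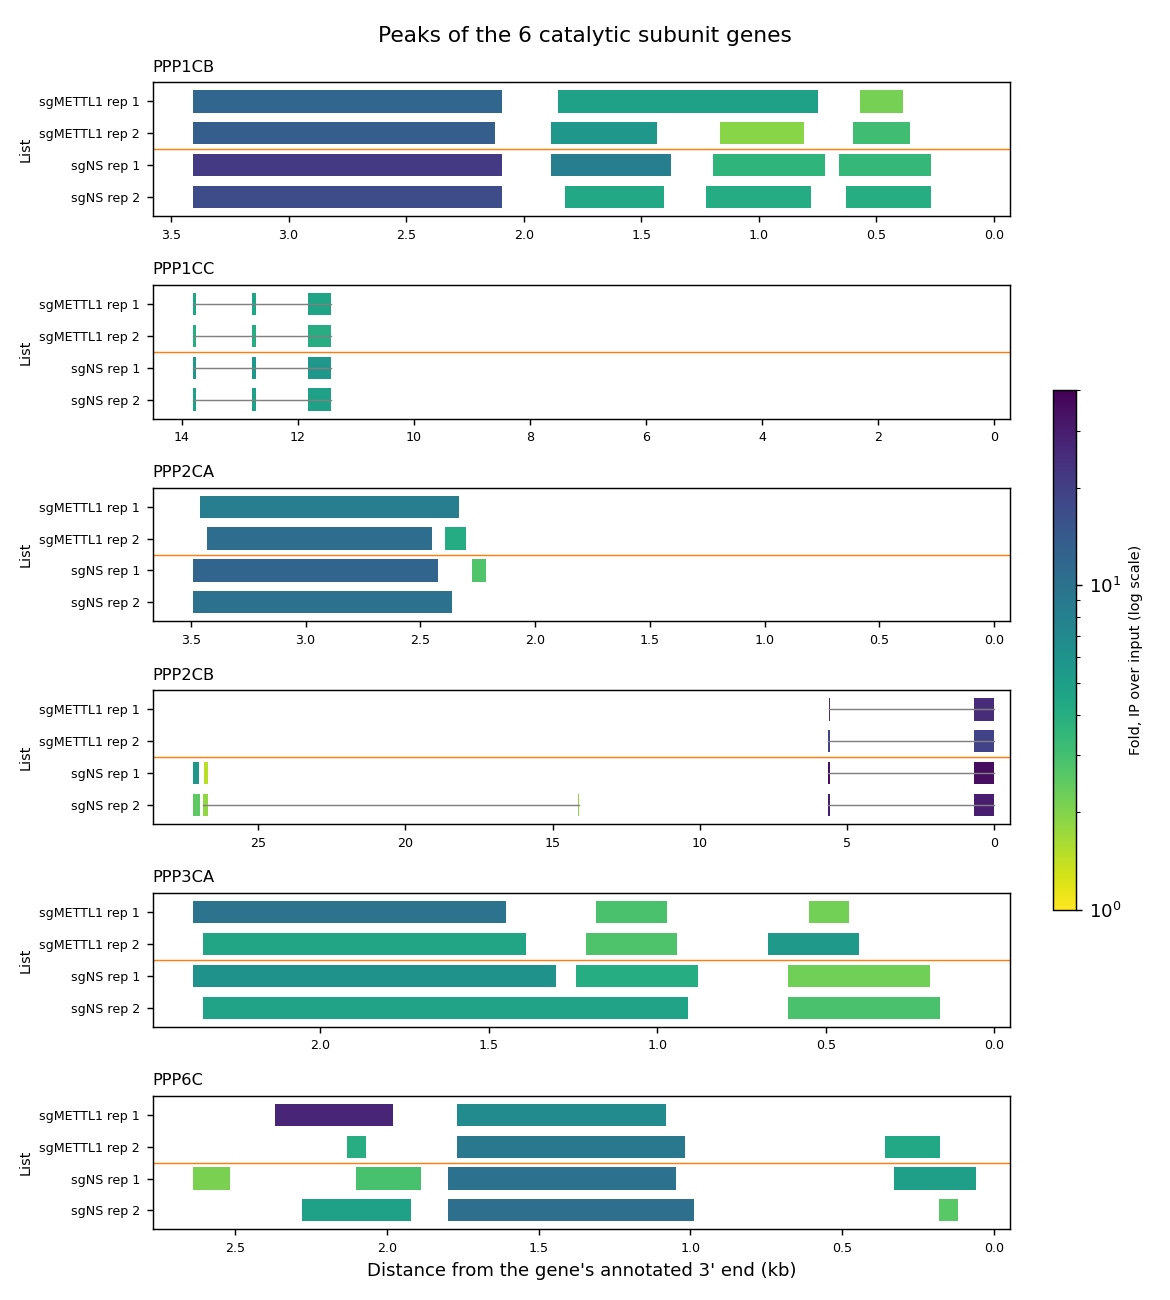
Peaks of the 6 catalytic subunit genes in each list, with sgMETTL1 lists above the line and sgNS lists below it. The horizontal axis gives the distance from the gene's annotated 3′ end in kb, bars are exon blocks, thin lines join blocks of 1 peak, and colour is the authors' fold on a log scale. Main sites recur at the same place in all 4 lists, as for the 3 blocks of PPP1CC, while the upstream PPP2CB peaks were listed with sgNS alone.

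Among PP1 regulatory subunits, 13 of 40 named genes had a peak and 8 had one in all 4 lists. PPP1R9A, which encodes neurabin-1, a PP1 scaffold on actin, had the most peaks of any phosphatase gene, 6 and 7 with sgMETTL1, against 6 and 8 with sgNS. These fell into 7 sites along its last part on the plus strand of chromosome 7. The strongest (95291693 to 95292561) was at 14.4 and 8.74 with sgMETTL1, against 20.0 and 19.9 with sgNS. The widest (95292680 to 95294117) was at 11.8 and 10.1 with sgMETTL1, against 11.9 and 14.4 with sgNS. At these sites both sgMETTL1 folds lay below both sgNS folds, at the widest by only 11.8 against 11.9. The same order was found at 38.7% of all sites in the 4 lists. From ranks within each list, the score difference was -0.31 at the strongest site and -0.0027 at the widest.

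The first 2 sites of PPP1R9A stood the other way round. Site 1 (95290137 to 95290945) had folds of 2.90 and 3.14 with sgMETTL1, against 2.47 and 1.98 with sgNS. Site 2 (95291034 to 95291633) had folds of 3.05 and 2.82 with sgMETTL1, against 2.21 and 2.41 with sgNS. Both orders of the deposited folds thus occurred within 1 gene, and folds higher with sgMETTL1 in this way were found at 9.9% of all sites. No site was called in the comparison given below. Not every low site was higher with sgMETTL1, since site 5 was at 3.90 and 3.36 with sgMETTL1, against 6.48 and 4.36 with sgNS, and site 6 was at 2.43 in replicate 2 of sgMETTL1, against 3.59 and 2.43 with sgNS.

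**Figure D3:**
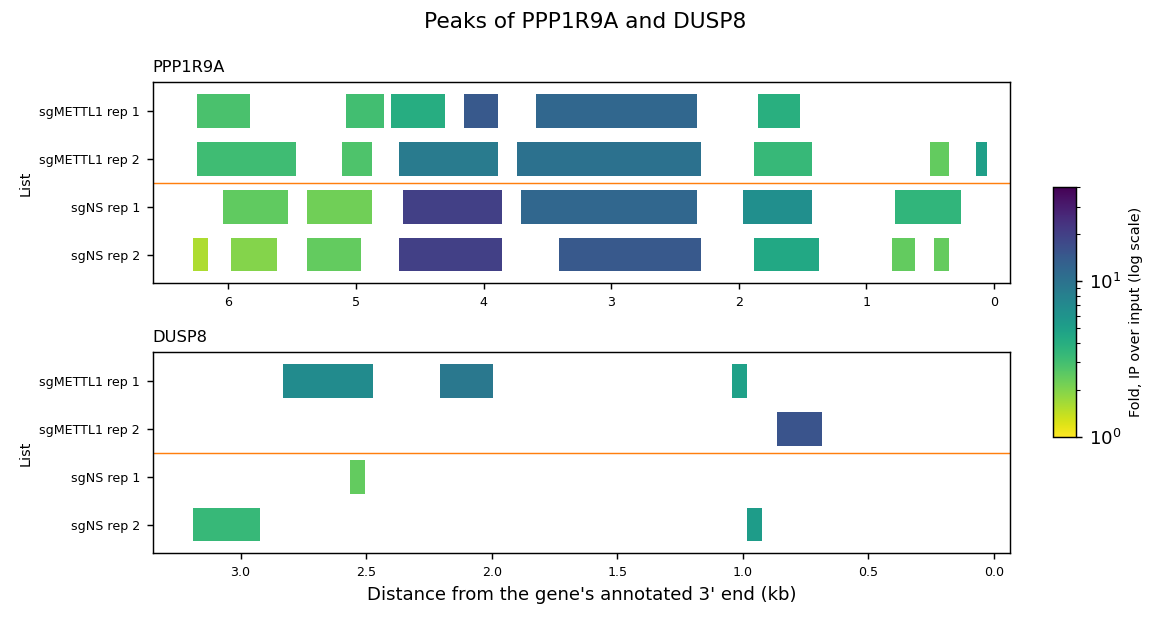
Peaks of PPP1R9A (top) and DUSP8 (bottom) by list, with sgMETTL1 lists above the line and sgNS lists below it, against distance from the annotated 3′ end in kb, with colour for the authors' fold on a log scale. PPP1R9A has 5 sites that all 4 lists share, whereas none of the 5 DUSP8 sites was in more than 2 lists.

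PPP1R9B, which encodes spinophilin, the relative of neurabin-1, had 3 and 5 peaks with sgMETTL1, against 4 and 6 with sgNS, at low folds. The highest fold of each list was 1.89 and 2.46 with sgMETTL1, against 2.63 and 3.05 with sgNS, at 4 different sites. All 4 lists shared 2 sites, and there the guides did not stand in that order. The shared site farther from the 3′ end was at 1.89 and 1.70 with sgMETTL1, against 1.58 and 1.80 with sgNS, and its score difference from ranks within each list was 0.43. The shared site nearer to it was at 1.55 and 2.13 with sgMETTL1, against 1.52 and 1.87 with sgNS, with a score difference of 0.42. PPP1R8, the nuclear inhibitor NIPP1, was at 6.61 and 8.33 with sgMETTL1, against 8.73 and 8.45 with sgNS, at its stronger site. Its other shared site was at 5.08 and 2.51 with sgMETTL1, against 4.97 and 7.22 with sgNS, with the lowest score difference of the phosphatase sites of all 4 lists, -0.44, which was -0.027 without replicate 2 of sgMETTL1. The replicates of both guides were thus far apart at that site. PPP1R2, inhibitor-2, stood at 8.71 and 7.94 with sgMETTL1, against 8.62 and 6.27 with sgNS. PPP1R15B, also called CReP, which brings PP1 to the initiation factor eIF2 alpha, was at 6.30 and 4.89 with sgMETTL1, against 8.84 and 7.94 with sgNS, at its main site.

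The other PP1 regulators in all 4 lists, named here after their values were seen, were PPP1R12A, the myosin phosphatase subunit MYPT1, PPP1R18 and PPP1R3C. PPP1R12A was at 2.91 and 3.56 with sgMETTL1, against 3.91 and 3.63 with sgNS. PPP1R18, the actin-binding protein phostensin, was at 4.57 and 6.66 with sgMETTL1, against 4.63 and 7.75 with sgNS, at the site of all 4 lists. PPP1R3C, which brings PP1 to glycogen, had 1 peak per list at 4.16 and 22.2 with sgMETTL1, against 4.17 and 6.87 with sgNS. The sgMETTL1 replicates of PPP1R3C differed 5.34 times, the widest replicate gap among the 26 genes, and their peaks lay at different sites.

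PP2A showed B subunits and catalytic subunits in the lists and no scaffold. Neither PPP2R1A nor PPP2R1B was named, while 8 of 12 B subunit genes had a peak and 4 were in all 4 lists. PPP2R5E, the B56 epsilon subunit, had the best-supported peak of all phosphatase genes, with -log10 p of 1100 and 1220 with sgMETTL1, against 2550 and 2640 with sgNS. Its fold was 20.5 and 25.0 with sgMETTL1, against 29.5 and 30.4 with sgNS. In both sgNS lists this was 1 peak over 7 exon blocks (chromosome 14, minus strand, 63375121 to 63393906), and with sgMETTL1 the same place was covered by 3 and 2 peaks of up to 4 blocks. The values above therefore cover unlike lengths, peaks of 1020 and 1140 bases with sgMETTL1, against 1440 and 1500 with sgNS. The peaks of 4 blocks with sgMETTL1 had folds of only 1.78 and 1.62.

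PPP2R2A, a B55 subunit, which directs PP2A to substrates at mitotic exit, stood at 11.9 and 15.2 with sgMETTL1, against 19.9 and 15.4 with sgNS, in a site that ended 1 base from the annotated 3′ end. PPP2R2C, B55 gamma, had the highest single fold of all phosphatase peaks, 54.1 in replicate 2 of sgMETTL1. That peak joined 2 exon blocks of 180 bases in all, 51958 bases from the 3′ end, and no other list had it. At its shared site near the 3′ end (chromosome 4, 6320578 to 6320936) the folds were 10.7 and 11.1 with sgMETTL1, against 10.6 and 9.51 with sgNS, close to each other. PPP2R5C, B56 gamma, named after its values were seen, was near the bottom of all lists, at 1.53 and 2.04 with sgMETTL1, against 1.88 and 1.85 with sgNS.

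Calcineurin's regulatory subunit gene PPP3R1 was also low, at 1.86 and 1.78 with sgMETTL1, against 1.96 and 1.82 with sgNS, at the site of all 4 lists. PP4 had 5 of 7 genes with a peak but not its catalytic subunit. PPP4R2, a regulatory subunit of the PP4 complex that acts in DNA repair, was among the strongest phosphatase transcripts, with a mean percentile of 13.6. Its site of 2 exon blocks on chromosome 3 (plus strand, 73064908 to 73066120) had folds of 27.7 and 28.8 with sgMETTL1, against 24.7 and 23.0 with sgNS. Folds higher with sgMETTL1 in this way were found at 9.9% of all sites in the 4 lists. The -log10 p at the PPP4R2 site ran the other way, at 970 and 1060 with sgMETTL1, against 1510 and 1510 with sgNS. It was lower in this way at 76.2% of all sites.

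PPP4R3A, the other PP4 subunit in all 4 lists, was at 5.13 and 2.20 with sgMETTL1, against 3.19 and 3.52 with sgNS. For PP6, PPP6R3 had a single wide peak that ended 1 base from the gene's end (chromosome 11, plus strand, 68613835 to 68615333). It covered 1469 and 1469 bases with sgMETTL1, against 1499 and 1469 with sgNS. The fold was 16.9 and 11.9 with sgMETTL1, against 18.8 and 17.7 with sgNS.

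Of the 10 typical MAP kinase phosphatases, 6 had a peak and 3 were in all 4 lists. DUSP6, the cytoplasmic ERK phosphatase, had 1 site on chromosome 12 (minus strand, 89348033 to 89348867) at 4.78 and 4.37 with sgMETTL1, against 5.12 and 6.13 with sgNS. The covered length was 537 and 448 bases with sgMETTL1, against 835 and 835 with sgNS, and in replicate 1 of sgMETTL1 it was split into 2 peaks. Covered bases were lower in this way at 49.1% of all sites in the 4 lists. DUSP9, another ERK phosphatase, was at 1.89 and 2.07 with sgMETTL1, against 2.12 and 2.64 with sgNS. For both genes the sgMETTL1 folds lay below the sgNS folds by a small margin, as they did at 38.7% of all sites in the 4 lists. From ranks within each list, the score difference was -0.0017 for DUSP6 and -0.14 for DUSP9.

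DUSP8, a phosphatase of JNK and p38, had folds of 9.14 and 15.3 with sgMETTL1, against 2.41 and 5.28 with sgNS. These values came from different places, because none of its 5 sites was in more than 2 lists. The -log10 p of the strongest peaks was 6.56 and 4.71 with sgMETTL1, against 2.76 and 2.54 with sgNS, so every one of them was weakly supported.

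The other MAP kinase phosphatases were weak or uneven. DUSP5, a nuclear ERK phosphatase, was at 2.34 and 2.36 with sgMETTL1, and at 2.21 in replicate 1 of sgNS alone. DUSP16, which acts on JNK, had 1.57 in replicate 2 of sgMETTL1, against 1.60 and 5.92 with sgNS, and DUSP10, which acts on JNK and p38, had 4.44 in replicate 2 of sgMETTL1, against 3.00 in replicate 1 of sgNS. No list named DUSP1, DUSP2, DUSP4 or DUSP7.

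Of 15 atypical dual-specificity phosphatases, 4 had a peak. DUSP14, which can act on MAP kinases, was the 1 in all 4 lists, with a site that ended 12 bases from the 3′ end (chromosome 17, plus strand, 37512806 to 37513486). Its fold was 8.98 and 9.23 with sgMETTL1, against 10.3 and 12.2 with sgNS. The site covered 474 and 592 bases with sgMETTL1, against 651 and 681 with sgNS, so the deposited sgMETTL1 peaks were both shorter and lower. Of all sites in the 4 lists, 38.7% were lower in this way by fold and 49.1% by bases. From ranks within each list, the score difference of DUSP14 was -0.025.

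**Figure D4:**
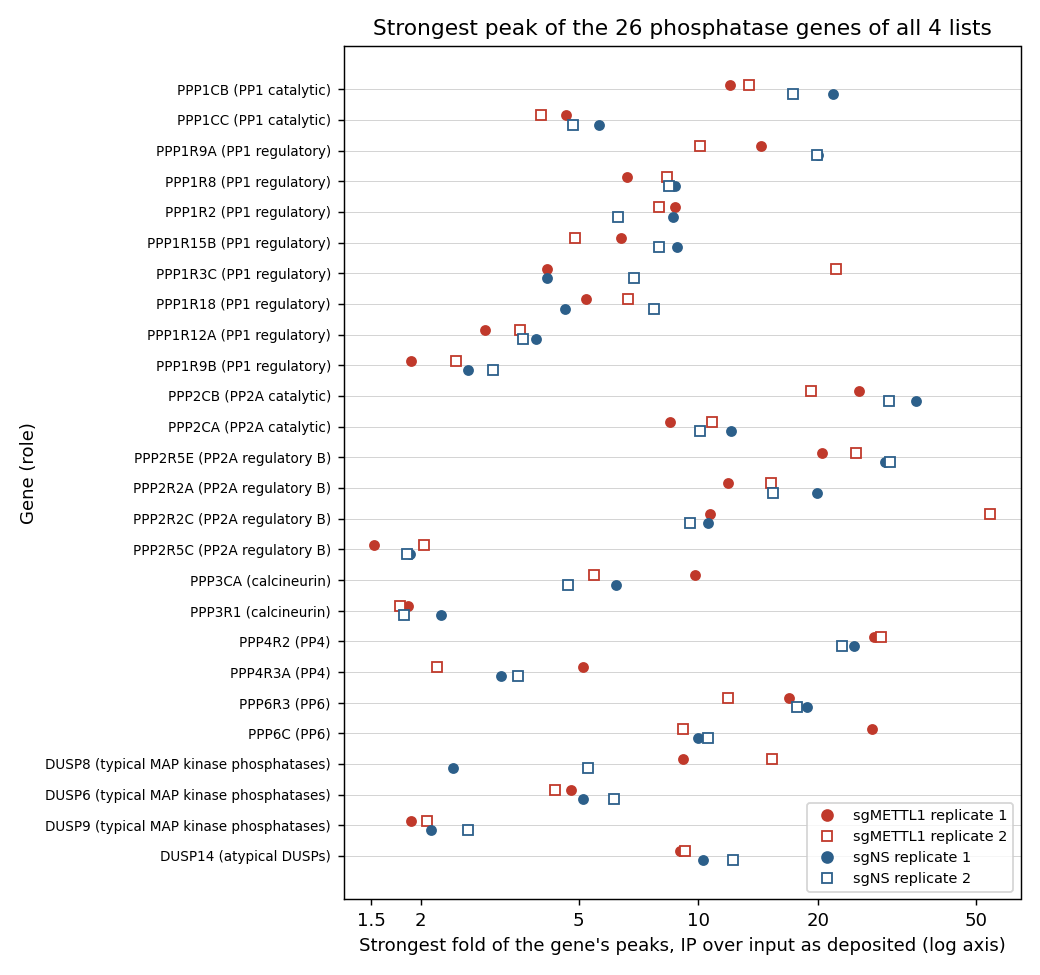
Strongest fold (IP over input, as deposited, log axis) of each of the 26 phosphatase genes of all 4 lists, with the role in brackets. Red marks are sgMETTL1 lists and blue marks sgNS lists, circles replicate 1 and squares replicate 2, and the red mark alone at 54.1 for PPP2R2C and at 22.2 for PPP1R3C is in 1 list.

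The centre of a phosphatase peak was in the last 10% of the gene's span for 69.9% and 77.0% of peaks with sgMETTL1, against 75.6% and 73.6% with sgNS, and for 73.6% to 74.8% of all peaks. The median distance to the annotated 3′ end was 1610 and 1280 bases with sgMETTL1, against 1340 and 1250 with sgNS, and 1370 to 1430 bases over all genes. Within 50 bases of that end lay 8.22% and 9.84% of phosphatase peaks with sgMETTL1, against 7.69% and 9.72% with sgNS, that is 6 or 7 peaks per list, and 10.9% to 13.3% of all peaks. Peaks that joined 2 or more exon blocks made up 12.3% and 16.4% with sgMETTL1, against 12.8% and 13.9% with sgNS, while over all genes this share was 9.08% to 9.52%. These are 9 or 10 peaks per list, from genes such as PPP1CC, PPP2CB, PPP2R5E and PPP4R2 that recur in the lists, and the difference from other genes was not tested.

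Peaks recurred between replicates about as often as for all genes. In replicate 1 of sgMETTL1, 48 of 73 peaks (65.8%, 95% exact interval 53.7 to 76.5) shared at least 1 base with a peak of replicate 2, against 73.4% over all genes, and in the other direction 47 of 61 did (77.0%, 64.5 to 86.8, against 77.9%). With sgNS it was 59 of 78 (75.6%, 64.6 to 84.7, against 78.8%) and 60 of 72 (83.3%, 72.7 to 91.1, against 83.5%). Each interval holds the value over all genes, and covers counting error only. It treats several peaks of 1 gene as independent, so it may be too narrow. Between the guides, 72.6% to 85.2% of sgMETTL1 peaks overlapped a peak of a given sgNS list, and 62.8% to 66.7% of sgNS peaks overlapped a peak of a given sgMETTL1 list. Over all genes the same shares were 82.6% to 85.3% and 64.1% to 69.8%. Of the 8 intervals between the guides, the one for replicate 1 of sgMETTL1 met by replicate 2 of sgNS (72.6%, 60.9 to 82.4) did not reach the value over all genes, 82.6%. It fell short narrowly, and the same limit on peaks of 1 gene applies to it.

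By presence of a peak, few phosphatase genes separated the guides. Both sgMETTL1 lists named 29 of the 44 (65.9%, against 67.5% of all genes), and both sgNS lists 32 (72.7%, against 76.3%). DUSP19 and PPP2R3C had a peak in each sgNS list and in no sgMETTL1 list, 4.55% of the phosphatase genes, beside a background of 4.63% over all genes. The reverse was found for 0 phosphatase genes, beside 1.52% over all genes. With equal numbers of peaks these counts stayed at 2 and 0, beside 200 and 153 of all genes, against 302 and 99 with all peaks. The libraries were bulk, so fewer cells with a bound transcript and less bound RNA per cell cannot be told apart.

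Of the genes missing from both sgMETTL1 lists, DUSP19 was weakly supported and PPP2R3C had low folds. DUSP19, an atypical phosphatase linked to JNK signalling, had a peak on chromosome 2 (plus strand, 183099066 to 183099305) at folds of 5.79 and 29.6 with -log10 p of 5.11 and 5.90 in the sgNS lists. PPP2R3C, a B subunit of PP2A, had folds of 1.62 and 1.79 there, on a spliced peak with -log10 p of 6.26 and 10.7. The second of these was close to the median of its list, 10.8. The folds of PPP2R3C were close to the lowest that the sgNS lists hold, 1.15 and 1.09. Without replicate 1 of sgMETTL1 the number was 5, adding PPP1R26, PPP2R2D and PPP4R1, and without replicate 2 it was 3, while over all genes the number was 601 and 523, against 302 with all lists. The phosphatase genes in the sgMETTL1 lists alone numbered 0 to 3 over the 4 ways to leave out a list, beside 166 to 333 of all genes, against 99 with all lists.

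The remaining genes that were not in all 4 lists, named here after their values were seen, were listed unevenly. PPP1R12B, PPP1R26, PPP1R3D, PPP1R3E, PPP2R2D, PPP2R3A, PPP2R5A, PPP4R1 and PPP4R3B had a peak in replicate 1 of sgMETTL1 and none in replicate 2. Of these, PPP1R26, PPP2R2D and PPP4R1 were in both sgNS lists, and PPP1R3D, PPP2R5A and PPP4R3B were in that sgMETTL1 list alone. PPP2R3A, a B subunit of PP2A, had a high fold of 30.5 in that list, against 18.5 in replicate 1 of sgNS, at different sites and with -log10 p of 5.16 and 3.35. DUSP12 and DUSP28 were each in 1 sgNS list, and PPP4R4 had a peak in 3 lists at 3 different places.

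The strength of peaks was compared at the 26 phosphatase genes of all 4 lists, as part of a fit over 4150 genes. Because no scaling between lists is stated, the gene's strongest fold was ranked within its list and turned into a normal score, where 0 is the middle gene and 1 is about 1 standard deviation. By limma, at a false discovery rate of 5%, 0 of the 26 genes were called, beside 0% of the 4150 (smallest adjusted p = 0.429 among phosphatase genes and 0.221 among all genes). At an unadjusted p under 0.05 there were 408 of the 4150 genes, 4.72% lower and 5.11% higher with sgMETTL1, and 1 phosphatase gene, DUSP8. Of the 26 score differences 12 were below 0, beside 52.2% of all genes, and 14 above it, beside 47.8%, and their median was 0.01, against -0.017 over all genes. Both sgMETTL1 scores lay below both sgNS scores for 5 genes, PPP1CB, PPP1R15B, PPP1R9A, PPP2CB and PPP2R5E, beside 22.7% of all genes. They lay above them for 6, DUSP8, PPP1R2, PPP2R2C, PPP3CA, PPP4R2 and PPP6C, beside 20.0% of all genes. For DUSP8, PPP2R2C, PPP3CA and PPP6C the strongest peaks of the sgMETTL1 lists lay at different sites. No site of PPP3CA or PPP6C in all 4 lists had both sgMETTL1 scores above both sgNS scores.

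DUSP8 had a score difference of 1.46 (SE 0.425, 95% interval 0.34 to 2.57, limma adjusted p = 0.429), with both sgMETTL1 folds above both sgNS folds. It was 0.91 without replicate 1 of sgNS and 1.98 without replicate 2 of sgNS. The interval leaves out 0 before adjustment, and as given above its peaks were weak and lay at different sites. The next largest were PPP2R2C at 0.88 (SE 0.493) and PPP1R3C at 0.68 (SE 0.580), each with 1 outlying peak in replicate 2 of sgMETTL1, and PPP2R2C was at 0.16 without that list. On the lower side stood PPP1R9A at -0.29 (SE 0.190), PPP2CB at -0.28 (SE 0.189), PPP1R9B at -0.27 (SE 0.282) and PPP1CB at -0.23 (SE 0.189), all with intervals that hold 0.

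**Figure D5:**
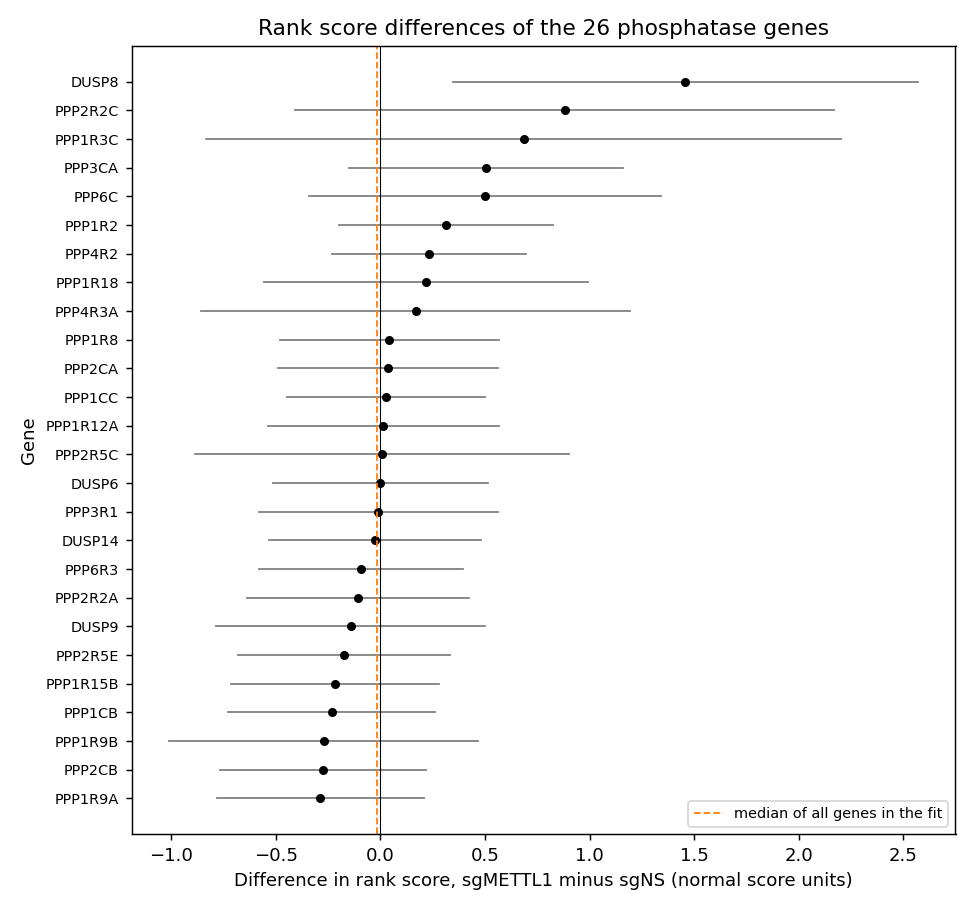
Difference in rank score, sgMETTL1 minus sgNS, of the 26 phosphatase genes (normal score units), as points with 95% limma intervals before adjustment over genes, with the median of all 4150 genes as a dashed line. DUSP8 at 1.46 is the 1 gene whose interval leaves out 0, and its adjusted p is 0.429.

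Because a gene's strongest peak can lie at different places in different lists, the comparison was repeated at matched sites, where peaks of a gene that share a base in any list are joined. The phosphatase genes had 103 of 14518 sites. Of these 39 were in all 4 lists (37.9%, against 41.3% of all sites), and 36 were in 1 list (35.0%, against 32.4%). By limma 0 of the 39 sites were called, beside 0% of 6003 (smallest adjusted p = 0.417 among phosphatase sites and 0.333 among all). Unadjusted p-values under 0.05 were found for 628 of the 6003 sites, 5.05% lower and 5.41% higher, and for 2 phosphatase sites, both of PPP1R9A. Score differences were below 0 at 18 of the 39 sites, beside 51.9% of all sites, and above it at 21, beside 48.1%.

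These were site 1 of PPP1R9A, with a score difference of 0.72 (SE 0.214, limma adjusted p = 0.417), and site 2, with 0.61 (SE 0.190, adjusted p = 0.422). At the strongest site of the same transcript the difference was -0.31 (SE 0.208), and at the widest site -0.0027 (SE 0.189). The rank scores of both sgMETTL1 lists lay below those of both sgNS lists at 5 of the 39 sites, beside 23.7% of all sites, and above them at 7, beside 20.3%. The 5 were the main sites of PPP1CB, PPP1R15B and PPP2CB and 2 sites of PPP1R9A. The 7 were the main sites of PPP4R2, PPP1R2 and PPP3R1, the 3′ site of PPP2R2C, a site of PPP1R9B and sites 1 and 2 of PPP1R9A.

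At the same sites the deposited values themselves were more often lower than higher with sgMETTL1, as they were across the lists. Both sgMETTL1 folds lay below both sgNS folds at 17 of 39 phosphatase sites, beside 38.7% of all sites, and above them at 4, beside 9.9%. For -log10 p the counts were 29 lower, beside 76.2% of all sites, and 1 higher, beside 3.45%, the 1 being site 1 of PPP1R9A. Covered bases were lower at 17 sites, beside 49.1%, and higher at 0, beside 4.0%. The median log2 ratio of sgMETTL1 over sgNS at these sites was -0.203 for fold, -0.944 for -log10 p and -0.196 for bases, against -0.225, -0.99 and -0.234 over all sites. The part of these shifts in the differences between deposited folds of single genes was not tested, and ranks within a list set a shift of the whole list aside.

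Sites that each sgNS list and no sgMETTL1 list held numbered 8 of the 103, 7.77% beside 7.42% of all sites, and the reverse was found for 0, beside 1.21%. Besides the sites of DUSP19 and PPP2R3C they were 2 upstream sites of PPP2CB and 1 minor site each of PPP1R12A, PPP1R9B, PPP3R1 and PPP4R2. Each of the last 5 genes kept another site in all 4 lists.

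Genes that work with these phosphatases, taken as lists by function rather than by their values, were read from the same fit. Of 25 names of PP2A modulators, which stand for 21 current genes, 13 had a peak, 8 in both sgMETTL1 lists and 11 in both sgNS lists, where 67.5% and 76.3% of all listed genes were. ARPP19, which inhibits PP2A-B55 in mitosis, was at 27.6 and 25.6 with sgMETTL1, against 37.4 and 32.5 with sgNS. Its score difference from ranks within each list was -0.16. Among the 8 modulators of all 4 lists, 4 score differences were below 0 and 4 above it, with FAM122A at 0.61. MASTL, the kinase that activates ARPP19, was named in the sgNS lists alone, by both, as were 4.63% of all genes. ARPP19, FAM122A and MASTL were named here after their values were seen. Of 11 MAP kinases 5 had a peak, all in all 4 lists.

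Of 13 calcineurin partners 8 had a peak and 6 had one in all 4 lists. NFATC3, a transcription factor that calcineurin activates, was named by both sgNS lists and by no sgMETTL1 list, as were 4.63% of all genes. NFAT5, held in that list as a member of the NFAT family only, was at 16.0 and 17.7 with sgMETTL1, against 20.1 and 17.6 with sgNS. Of 19 metal-dependent phosphatases, an unrelated family of serine/threonine phosphatases, 11 had a peak and 6 were in all 4 lists, among them PPM1A at 14.8 and 22.2 with sgMETTL1, against 17.2 and 31.7 with sgNS. PPM1K and PPTC7 of that family were in both sgNS lists alone, as were 4.63% of all genes. Limma called 0 genes of the 4 functional lists. At an unadjusted p under 0.05 it had 1, CALM3, a calmodulin gene named here after its values were seen, at 1.48 and 1.36 with sgMETTL1, against 1.76 and 2.11 with sgNS (score difference -0.73). The median score difference was -0.039 for PP2A modulators, -0.066 for MAP kinases, 0.008 for calcineurin partners and 0.16 for metal-dependent phosphatases, against -0.017 over all genes, and at an unadjusted p under 0.05 limma had 408 of all 4150 genes.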

How the data were processed

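Data were peak lists from RNA immunoprecipitation of Flag-QKI7 in HepG2 cells, 1 from every IP sample with its input. The authors deposited them after processing with STAR against GRCh38, per the submitters' processing notes. The caller, its settings and any scaling between lists were not stated in the sources used here. The fold of a peak is a ratio of IP over input as deposited by the authors. Its p-value, and log10 values of p and FDR that were handled as a score, were also deposited by the authors. Lists were named for their samples in the labels, and replicates were not pooled. No read counts were used, so depth is unknown and precision could not be computed from it.

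From these lists, genes were taken by name and peaks by exon blocks, with coordinates 1-based. Positions were measured to the gene's end in RefSeq GRCh38.p14. No genome sequence was used, and so transcript parts and QKI motifs are not analysed here. The strongest fold of each gene, or site, of all 4 lists was ranked within the list and converted to a normal score, and sgMETTL1 was compared with sgNS by limma 3.58.1 in R 4.3.3, two-sided, with Benjamini-Hochberg adjustment over all 4150 genes or 6003 sites. An exact test of 2 lists against 2 cannot go below p = 0.33. Overlap intervals are Clopper-Pearson (scipy 1.17.1, pandas 2.3.3, numpy 2.4.6, Python 3.11.15, matplotlib 3.10.9). The fit was tested on simulated data of 4150 genes. There it called 12% of genes moved by 2 standard deviations, 66% of those moved by 4, and 1 of 3950 unmoved genes. Every simulated gene had the same spread, whereas in the real lists the SE differed between genes (0.177 for PPP4R2 and 0.580 for PPP1R3C). The simulated shares therefore do not give the share of real differences that the fit would find.

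The phosphatase genes, the gene lists and the tests were chosen with earlier results of these data known. Named were every catalytic subunit and typical MAP kinase phosphatase with a peak, the 10 genes with the best mean rank, genes in both lists of 1 guide alone, the 5 smallest p-values in each direction by gene and by site, the 5 genes with the most peaks, genes with peaks of 3 or more blocks in all 4 lists, and the 2 best-ranked genes of each role. Same-numbered lists did not deviate together (correlation -0.002 over 4150 genes), so the numbers were not taken to pair samples. Alternatives were other ranks, overlaps and thresholds, the replicate number as a block, and each list left out in turn.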

Additional observations from a re-analysis of the deposited data

How the results depend on the processing

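No phosphatase gene or site was called by limma in any setting run, with the smallest adjusted p between 0.164 and 0.629 over the genes and between 0.17 and 0.612 over the sites. The replicate number as a block, which does not pair these lists, gave 0 genes and 0 sites (smallest adjusted p = 0.473 and 0.5). On log2 folds in place of ranks 18 of the 26 genes were below 0, against 12 on ranks, around a median of -0.239 over all genes. The genes in sgNS lists alone numbered 2, with 1 (DUSP19) when folds under 2 times the smallest of a list were dropped, and 3 to 5 when a list was left out, beside 302, 277 and 504 to 647 over all genes. The genes in sgMETTL1 lists alone numbered 0, with 1 at that fold limit (DUSP5), 1 by peak overlap (PPP4R4) and 0 to 3 when a list was left out, beside 99, 95, 133 and 166 to 333 over all genes. Requiring 50% of the bases of both peaks lowered the replicate overlap to 52.1% and 62.3% with sgMETTL1, against 61.5% and 66.7% with sgNS. Score differences changed sign for PPP1R9A with the mean of its peaks (0.17) and by best p (0.031), PPP2CB with the mean of its peaks (1.28), PPP1R9B by best p (0.31) and without replicate 1 of sgMETTL1 (0.027, with -0.57 as the lowest value when a list was left out), PPP6C by best p (-0.067) and its site 2 by best p (-0.18). For PPP2CB the mean takes in upstream peaks of lower fold that only the sgNS lists hold; for the others the cause was not tested. Over these settings the other 143 recomputed values of single genes and sites kept their sign and their side of the threshold.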
